A study of Mus musculus with 6 samples.

Results

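The matrix metalloproteinases (MMP), the ADAMTS enzymes and their tissue inhibitors (TIMP) were followed in salivary gland primordia of mouse embryos. All genes with such a symbol in the deposited count table were taken, whatever their values. They were 23 Mmp genes, 19 Adamts genes and 4 Timp genes, 46 of 58116 rows. The families themselves were chosen with earlier results of these data known. In the tested group, wild-type primordia of embryonic day 13.5 received 300 ng/ml of BMP-2, a bone morphogenetic protein that signals through SMAD factors. In the control group, primordia of the same genotype and stage received 0 ng/ml. Each group had 3 libraries of poly(A) RNA, and the labels give neither the time of exposure nor whether embryos were pooled.

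MMPs are zinc enzymes that cut collagens and other matrix proteins. They are made as inactive precursors and are either secreted or held at the cell membrane. ADAMTS enzymes carry thrombospondin repeats and cut proteoglycans, procollagens and other matrix proteins. TIMPs bind the active site of these enzymes, and TIMP3, which stays in the matrix, also inhibits several ADAMTS enzymes. In the branching salivary gland of the mouse, membrane-type MMPs are known to cut basement membrane collagen as buds divide.

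Total counts ran from 23331703 to 32473558 in the BMP-2 libraries and from 19724383 to 26269855 in the controls. The 46 genes held 0.194 to 0.237% of the counts of a BMP-2 library and 0.175 to 0.222% of a control library. The column of 1 BMP-2 library fits no sample description. It was placed by its leading letter and is referred to below as the unnumbered library. Epithelial markers, led by keratins and cadherin, summed to 4714 to 5915 CPM (counts scaled to library size) with BMP-2 and 6283 to 8351 CPM in controls. Mesenchymal markers summed to 4222 to 6562 and 5121 to 5782 CPM, and the mesenchymal factor gene Tcf21 had no count in any control. Of the 9 mesenchymal markers tested, 6 had a positive and 3 a negative change, and 0 passed the test. Skeletal muscle markers summed to 190 to 819 CPM with BMP-2 and 5.21 to 98.8 CPM in controls, so the libraries also differ in muscle RNA. All 13 tested muscle markers had a positive change and 1 of them passed the test as higher, where 0.811% of all genes tested did. The part of these differences in the results below was not tested. In whole tissue, fewer cells of a type and less RNA per cell cannot be told apart.

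No MMP, ADAMTS or TIMP gene passed the test. Of the 46 genes, 34 had enough counts to be tested, and edgeR's quasi-likelihood test called 0 of them at an adjusted p below 0.05. Among all 17006 genes tested, 0.911% were called, 0.811% as higher and 0.1% as lower with BMP-2. DESeq2 called 2 of the 34 genes, Mmp28 and Adamts9, both higher, where it called 3.58% of all genes, and limma-voom called 0 where it called 0.459%. At an unadjusted p below 0.05 edgeR found 7 of the 34 genes, which is 20.6%, against 10.1% of all genes. These 7 were Mmp28, Adamts9, Adamts15, Adamts10, Timp2, Mmp14 and Adamts12. Positive and negative changes were equally frequent, with 17 genes each, and the median log2 change was 0.015, against -0.0098 over all genes tested.

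The data bound the size of any change for part of these genes, a smaller share than over all genes tested. The unadjusted 95% interval of the change lay inside 2-fold in both directions for 22 of the 34 genes (64.7%). It lay inside 1.5-fold for 7 (20.6%). Over all genes tested these shares were 72.5% and 50.9%. An estimate of at least 2-fold was found for 1 gene, Mmp28. On the log2 scale the interval of Adamts1 ran from -0.45 to 0.08, that of Adamts4 from -0.34 to 0.22 and that of Mmp19 from -0.32 to 0.42. Mmp13, Mmp12, Timp1 and Mmp9 had the widest intervals. The interval of Mmp13 ran from -2.87 to 1.11, that of Mmp12 from -2.32 to 1.40, that of Timp1 from -0.95 to 2.05 and that of Mmp9 from -0.64 to 2.29. For these 4 genes, among others, the interval includes a change of 2-fold.

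**Figure D1:**
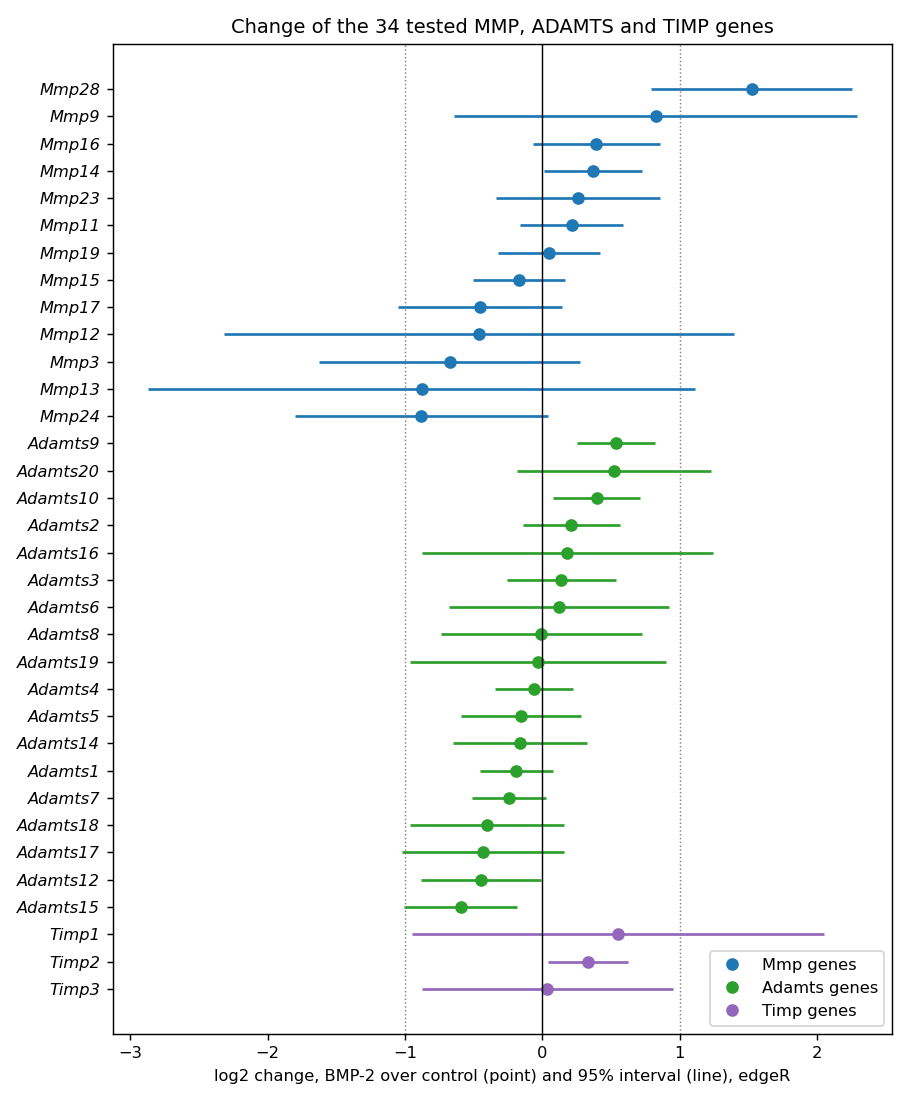
Log2 change of the 34 tested genes (BMP-2 over control, points) with unadjusted 95% intervals (lines), by family. Dotted lines mark 2-fold. The estimate of Mmp28, at 1.52, lies beyond 2-fold, and no gene passed the adjusted test.

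The groups did not overlap for 8 of the 34 genes. Levels of Mmp28, Adamts9, Mmp14, Timp2 and Adamts10 were higher in every BMP-2 library than in any control, which is 14.7% of the genes against 8.76% of all genes tested. Levels of Adamts15, Mmp24 and Mmp17 were lower in every BMP-2 library, which is 8.82% against 6.73% of all genes.

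**Figure D2:**
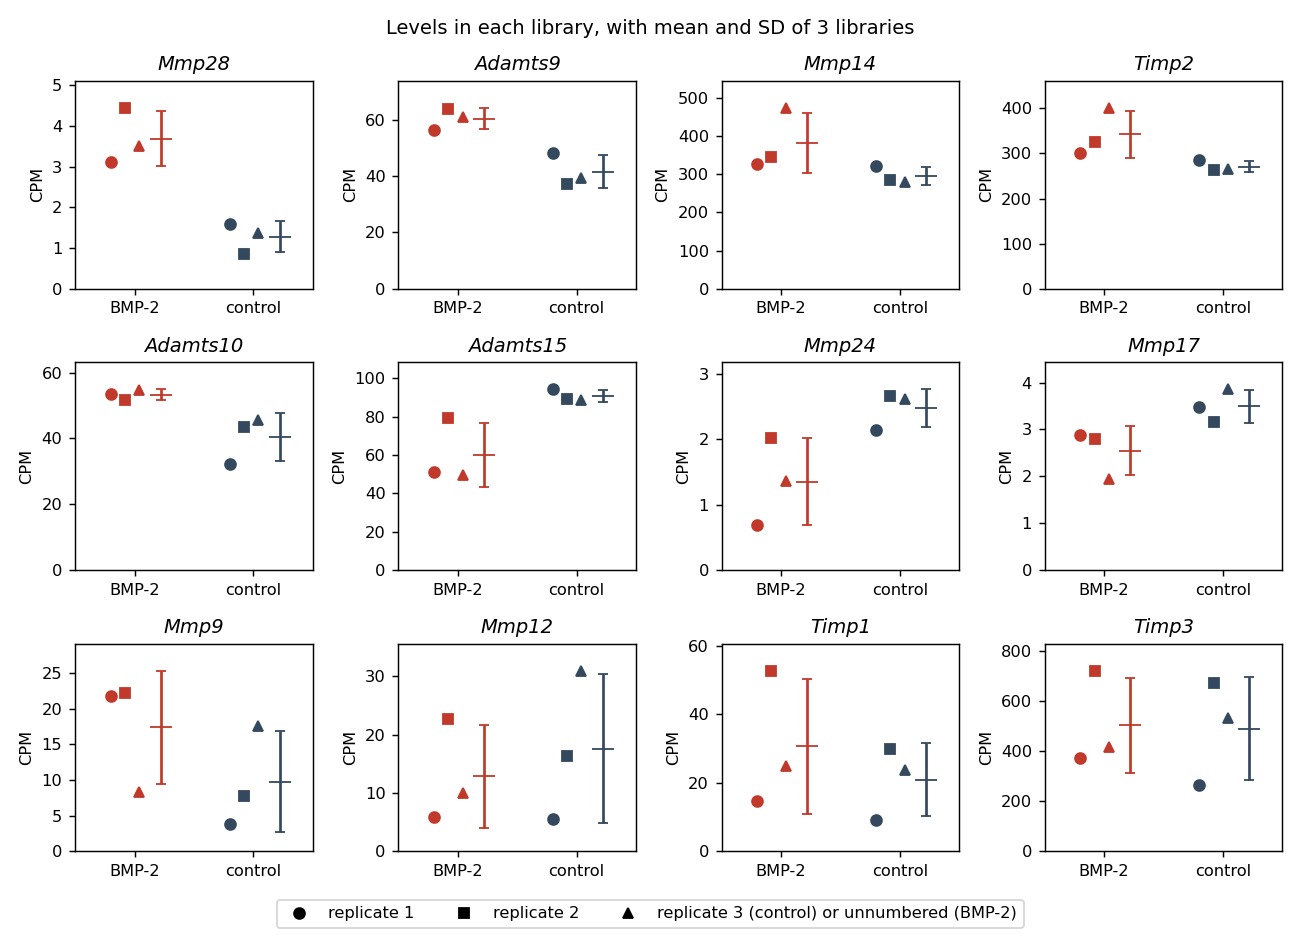
Levels in CPM (vertical axes from 0) of 12 genes in each library, BMP-2 at the left and control at the right of each panel, with mean and SD (n = 3 each). The groups separate in the upper 8 panels, from Mmp28 to Mmp17, and overlap in the panels of Mmp9, Mmp12, Timp1 and Timp3.

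The promoter windows of the most abundant genes and of the chromosome 9 MMP genes differed in GC boxes and AP-1 motifs. RefSeq promoter windows (GRCm38.p6, from 250 bases before to 50 after the start of the gene) were matched by symbol for 32 of the 46 genes. Both strands were searched, and 3 genes had 2 windows each, either of which could hold a motif. A GC box, GGGCGG, was found for 18 of them and in 35.7% of all 32851 windows. An AP-1 motif, TGANTCA, was found for 8 genes and in 7.81% of all windows, and a TATA box, TATAAA, for 11 genes and in 13.6%. All 8 genes with the AP-1 motif lie in a cluster of 10 MMP genes on chromosome 9. In each of the 8 a TATA box followed 12 to 41 bases after the AP-1 motif, which began 35 to 95 bases before the annotated start. None of the 10 cluster genes held a GC box. The 6 members with the highest level per length all held a GC box and no AP-1 motif, and 1 of them, Adamts1, also held a TATA box. The GC box was not particular to these 6, as 16 of the 21 tested genes with a window held it. The motif GGCGCC, which SMAD factors of the BMP branch can bind, was found for 6 genes and in 11.9% of all windows. The 6 were Adamts2, Adamts9, Adamts14, Mmp11, Mmp23 and Mmp24. Of these, Adamts9 was higher and Mmp24 lower in every BMP-2 library than in any control. Among the other genes whose levels separated the groups, Mmp28, Mmp14 and Timp2 did not hold the motif. Adamts10, Adamts15 and Mmp17 had no matched window and were not searched. GGCGCC shared letters with a GC box in none of the windows of these families. The RUNX motif TGTGGT was found for 6 genes, among them Mmp13 and Mmp14, and in 16.8% of all windows. These matches are letters in a window and do not show that a factor binds there.

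Windows are printed for 2 of the cluster genes and for 3 genes whose levels separated the groups. Capitals mark AP-1 motifs, GC boxes and TATA boxes, and positions are those of GRCm38.p6.
Mmp13 (chr9:7272264-7272563, plus strand): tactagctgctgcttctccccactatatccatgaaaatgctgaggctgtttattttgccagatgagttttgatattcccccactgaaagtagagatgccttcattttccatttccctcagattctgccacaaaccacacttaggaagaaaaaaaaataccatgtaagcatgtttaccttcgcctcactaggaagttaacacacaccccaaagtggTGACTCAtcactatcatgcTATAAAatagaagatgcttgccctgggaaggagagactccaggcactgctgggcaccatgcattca
Mmp3 (chr9:7445572-7445871, plus strand): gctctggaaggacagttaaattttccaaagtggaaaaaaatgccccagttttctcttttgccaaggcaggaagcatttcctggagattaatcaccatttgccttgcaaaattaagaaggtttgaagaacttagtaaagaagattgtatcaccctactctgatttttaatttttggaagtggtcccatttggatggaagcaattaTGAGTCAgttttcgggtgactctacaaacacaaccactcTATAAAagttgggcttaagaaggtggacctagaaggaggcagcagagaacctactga
Mmp14 (chr14:54431348-54431647, plus strand): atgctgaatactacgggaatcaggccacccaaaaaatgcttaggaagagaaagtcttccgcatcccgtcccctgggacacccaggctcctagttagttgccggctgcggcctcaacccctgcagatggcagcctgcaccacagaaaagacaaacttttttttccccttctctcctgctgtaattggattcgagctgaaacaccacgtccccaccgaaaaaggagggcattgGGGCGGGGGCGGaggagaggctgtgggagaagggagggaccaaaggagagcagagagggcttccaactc
Timp2 (chr11:118355362-118355661, minus strand): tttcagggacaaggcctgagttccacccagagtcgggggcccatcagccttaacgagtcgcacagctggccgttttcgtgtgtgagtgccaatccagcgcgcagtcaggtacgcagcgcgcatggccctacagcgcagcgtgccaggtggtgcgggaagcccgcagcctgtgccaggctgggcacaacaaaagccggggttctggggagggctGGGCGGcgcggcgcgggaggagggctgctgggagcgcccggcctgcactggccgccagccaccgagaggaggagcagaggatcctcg
Mmp28 (chr11:83462991-83463290, minus strand): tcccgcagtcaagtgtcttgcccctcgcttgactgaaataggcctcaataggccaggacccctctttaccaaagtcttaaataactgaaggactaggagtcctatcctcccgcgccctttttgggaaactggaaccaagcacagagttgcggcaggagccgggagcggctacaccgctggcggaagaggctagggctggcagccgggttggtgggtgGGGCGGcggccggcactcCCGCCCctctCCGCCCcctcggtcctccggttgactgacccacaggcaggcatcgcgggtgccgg
In the windows of Mmp13 and Mmp3 the AP-1 motif stands before the TATA box. Of these 3 motifs, the windows of Mmp14, Timp2 and Mmp28 hold the GC box only.

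A few genes supplied most of the RNA of these families. Levels were compared between genes as CPM per kilobase of gene model, with the lengths of the deposited table. Timp2 stood at 82.6 ± 12.5 with BMP-2 and 65.4 ± 2.86 CPM per kilobase in controls (SD, n = 3 each). Mmp14 stood at 64.1 ± 13.3 and 49.6 ± 3.94, and Timp3 at 61.8 ± 23.3 and 60.2 ± 25.4 CPM per kilobase. Timp1 followed at 29.6 ± 19.0 and 20.2 ± 10.2, Adamts1 at 20.4 ± 0.731 and 23.2 ± 3.08 and Mmp15 at 18.7 ± 2.15 and 21.0 ± 3.90 CPM per kilobase. The ranges over libraries of Timp2 and Timp3 overlapped in both groups, as did those of Timp3 and Mmp14 and those of Timp1, Adamts1 and Mmp15, so the order of these neighbours is not fixed. These 6 genes held 76.2 ± 3.64% of the length-scaled level of all 46 genes with BMP-2 and 72.6 ± 2.22% in controls (SD, n = 3 each). By family, the 4 TIMP genes held 47.5 ± 6.15% and 43.9 ± 6.06%, the MMP genes 31.3 ± 3.92% and 30.3 ± 4.19%, and the ADAMTS genes 21.2 ± 3.77% and 25.9 ± 1.97%. The differences between the groups in these shares were not tested.

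**Figure D3:**
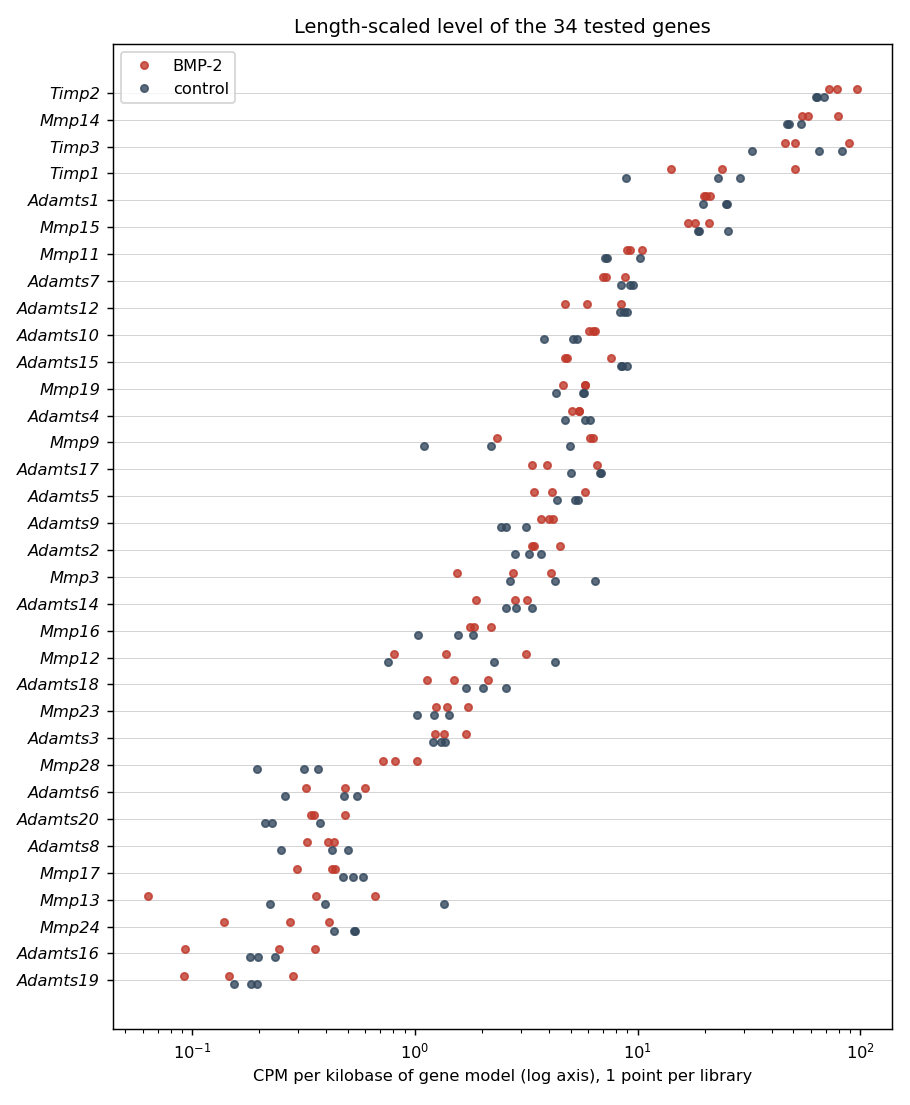
Length-scaled level of the 34 tested genes (log axis, CPM per kilobase, 1 point per library, BMP-2 above control in each row). Timp2 averaged 82.6 with BMP-2 and 65.4 in controls. Adamts19, at 0.174 and 0.178, had the lowest mean of the tested genes in both groups.

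Among the membrane-type MMPs, the groups did not overlap for Mmp14, which was higher with BMP-2, and for Mmp24 and Mmp17, which were lower. Mmp14 encodes MT1-MMP, a collagenase of the cell surface that also activates MMP2 together with TIMP2. It lies on chromosome 14 from 54669069 to 54682821, plus strand (GRCm39). Its level was 327, 346 and 473 CPM with BMP-2 (replicate 1, replicate 2, unnumbered library, an order kept throughout), against 322, 286 and 279 CPM in control replicates 1, 2 and 3. The lowest BMP-2 library exceeded the highest control by little, and the unnumbered library stood above the others. The change was 1.29-fold, or 0.37 on the log2 scale (SE 0.155, edgeR adjusted p = 0.457). Without the unnumbered library it was 0.19 on the log2 scale. Mmp15, which encodes MT2-MMP, was at 107, 99.7 and 125 CPM with BMP-2 and at 151, 110 and 112 CPM in controls, with overlapping groups and a log2 change of -0.17 (SE 0.147). MT2-MMP is the membrane enzyme known to release collagen IV fragments during branching of the mouse salivary gland. Mmp16, which encodes MT3-MMP, was at 46.9, 37.8 and 39.4 CPM with BMP-2 and at 22.1, 39.1 and 33.3 CPM in controls, where replicate 1 was low (log2 change 0.39, SE 0.202).

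Mmp24 encodes MT5-MMP, an enzyme known from the nervous system. Its level was 0.684, 2.02 and 1.36 CPM with BMP-2, below the 2.14, 2.65 and 2.62 CPM of the controls. All 3 BMP-2 libraries lay below all controls, and BMP-2 replicate 1 was far below the others. The log2 change was -0.88 (SE 0.402, edgeR adjusted p = 0.522). The nerve and glia marker sums were lower in the same libraries: over the 7 of 8 listed genes found in the table, they were at 119, 191 and 182 CPM with BMP-2 and at 197, 200 and 208 CPM in controls. Of the 6 tested, 1 had a positive change and 0 were called. Their part in the Mmp24 values was not tested. Mmp24 also overlaps BC029722 on the other strand. The strand setting of the counting is unknown here, so reads in such overlaps are uncertain.

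Mmp17, a membrane-anchored MMP, was at 2.89, 2.80 and 1.95 CPM with BMP-2 and at 3.48, 3.15 and 3.85 CPM in controls (log2 change -0.46, SE 0.262, edgeR adjusted p = 0.688). Each BMP-2 library lay below each control, by a small margin. Mmp23 averaged 3.42 ± 0.590 CPM with BMP-2 and 2.86 ± 0.470 CPM in controls (SD, n = 3 each), and the groups overlapped. Mmp25, which leukocytes express, had 24 counts in the BMP-2 and 17 in the control libraries together and was not tested.

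The secreted MMPs were mostly scarce, and Mmp28 had the largest change of all 34 tested genes. Mmp28 encodes epilysin, an MMP known from keratinocytes. It lies on chromosome 11 from 83331594 to 83353897, minus strand (GRCm39). The BMP-2 libraries had 100, 108 and 83 counts and the controls 32, 17 and 37. Scaled to library size, its level was 3.11, 4.44 and 3.52 CPM with BMP-2, against 1.59, 0.851 and 1.38 CPM in controls. Each BMP-2 library had about 2-fold the level of the highest control or more, and the groups were far apart relative to their spread. The change was 2.88-fold, or 1.52 on the log2 scale (SE 0.321), and it did not pass the test (edgeR adjusted p = 0.0775). DESeq2 gave an adjusted p of 0.00224 for it, and over all alternatives the adjusted p ran from 0.00224 to 0.28. Markers of keratinised epithelium were also higher, with sums of 2395, 2817 and 1892 CPM with BMP-2 and 933, 555 and 1764 CPM in controls. Of these 11 markers 10 had a positive change and 0 were called. Their part in the Mmp28 values was not tested.

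Mmp9 encodes gelatinase B, which macrophages, neutrophils and osteoclasts make. Its level was 21.7, 22.2 and 8.27 CPM with BMP-2 and 3.88, 7.81 and 17.6 CPM in controls. The groups overlapped, with the unnumbered BMP-2 library low and control replicate 3 high (log2 change 0.83, SE 0.608, edgeR adjusted p = 0.834). Leaving out 1 library moved the log2 change between 0.45 and 1.59, the highest value without control replicate 3, and made no call. Macrophage markers summed to 226, 441 and 300 CPM with BMP-2 and to 135, 219 and 289 CPM in controls. All 10 had a positive change and 0 were called. Osteoclast markers summed to 59.2 to 89.6 and 46.8 to 53.5 CPM, most of it from Ctsk. Neutrophil markers summed to 16.8 to 38.9 and 3.66 to 38.7 CPM, with Mpo at 0 in all libraries and Camp at 0 in the controls. The part of such cells in the Mmp9 values was not tested.

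Mmp2, which encodes the other gelatinase, was nearly absent from the table. It had 3, 2 and 6 counts in the BMP-2 libraries and 1, 1 and 5 in the controls, beside mesenchymal marker sums above 4222 CPM in every library. No other row of the table overlaps it, and the cause of the low count was not tested. The partner of MMP2 activation, Timp2, and its activator, Mmp14, had the highest mean level per length among the inhibitor and among the protease genes.

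The chromosome 9 cluster, 10 MMP genes within 427 kb, gave 3440 counts over all 6 libraries, and 65.1% of these came from Mmp12, 26.6% from Mmp3 and 6.05% from Mmp13. Mmp12 encodes the elastase of macrophages. It was at 5.85, 22.7 and 10.01 CPM with BMP-2 and at 5.47, 16.3 and 30.9 CPM in controls. Both groups spanned at least a 3-fold range, and replicate 1 was the lowest of each group. The log2 change was -0.46 (SE 0.749, edgeR adjusted p = 0.958), and it was 0.25 without control replicate 3. The macrophage marker sums are those given above.

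Mmp3, which encodes stromelysin-1, was at 2.80, 4.98 and 7.34 CPM with BMP-2 and at 4.83, 11.6 and 7.63 CPM in controls. The groups overlapped (log2 change -0.67, SE 0.413, edgeR adjusted p = 0.736). Mmp13 encodes collagenase-3, which hypertrophic chondrocytes and osteoblasts make. It was at 0.964, 1.77 and 0.170 CPM with BMP-2 and at 0.597, 1.05 and 3.63 CPM in controls. Control replicate 3 was the highest library and the unnumbered BMP-2 library the lowest (log2 change -0.88, SE 0.854, edgeR adjusted p = 0.902). Without control replicate 3 the log2 change was 0.25, so its direction rests on that library. Markers of hypertrophic chondrocytes summed to 97.0, 437 and 299 CPM with BMP-2 and to 39.8, 269 and 258 CPM in controls, and 1 of the 4 tested was called, as higher. Osteoblast markers, which share Alpl and Spp1 with that list, summed to 130 to 483 CPM with BMP-2 and 75.2 to 310 CPM in controls. Of the 6 osteoblast markers tested, 1 was called, as higher. Their log2 changes ran from -1.36 to 8.65, with 5 positive and 1 negative, and Ibsp had no count in any control. Beside the calls in these lists, 0.811% of all genes tested were called as higher. The part of such cells in the Mmp13 values was not tested. The other cluster genes had 24 counts or fewer over all libraries.

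**Figure D4:**
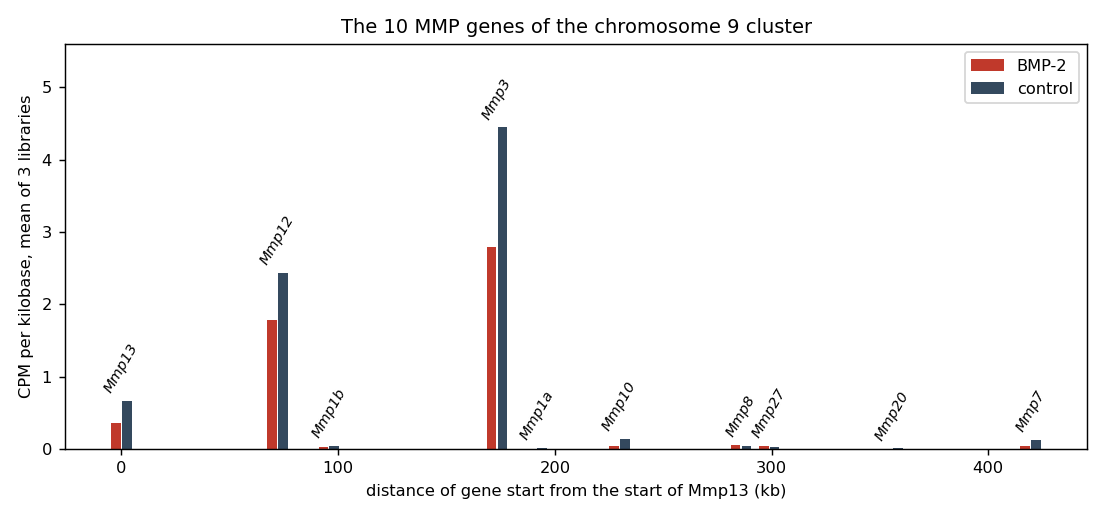
Mean length-scaled level (CPM per kilobase, bars from 0, n = 3 each) of the chromosome 9 MMP genes against the distance of their start from that of Mmp13. Mmp3 reached 2.80 with BMP-2 and 4.45 in controls, Mmp12 1.78 and 2.43, and 7 of the genes stayed near 0.

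Outside the cluster, Mmp11, or stromelysin-3, a gene of stromal cells, was at 29.3, 25.1 and 25.8 CPM with BMP-2 and at 28.7, 19.98 and 20.5 CPM in controls. The groups overlapped through control replicate 1 (log2 change 0.21, SE 0.164). It overlaps Chchd10 on the other strand. Mmp19 was at 16.6, 20.8 and 20.9 CPM with BMP-2 and at 15.5, 20.6 and 20.3 CPM in controls, nearly the same values in both groups.

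Below the expression filter were 12 genes, with 41 counts or fewer over all 6 libraries. They were Mmp1a, Mmp1b, Mmp2, Mmp7, Mmp8, Mmp10, Mmp20, Mmp21, Mmp25, Mmp27, Adamts13 and Timp4. Mmp1a and Mmp1b are close copies, and reads that match both are uncertain. Mmp20, the enamel protease gene, had 1 count, and Mmp21, a gene of left-right patterning, had 0 of 146919615 counts. For counting error alone, a count of 0 allows a level of up to 0.0204 CPM over all libraries.

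Among the ADAMTS genes that cut proteoglycans such as aggrecan and versican, Adamts9 and Adamts15 separated the groups in opposite directions. Adamts9, on chromosome 6 from 92749680 to 92920473 (minus strand, GRCm39), was at 56.3, 63.7 and 61.0 CPM with BMP-2, against 48.2, 37.3 and 39.2 CPM in controls. Every BMP-2 library was above every control. The change was 1.45-fold, or 0.54 on the log2 scale (SE 0.124), and did not pass the test (edgeR adjusted p = 0.0993), while DESeq2 gave an adjusted p of 0.0129. Over all alternatives its adjusted p ran from 0.00756 to 0.430. Adamts15, on chromosome 9 from 30810451 to 30833748 (minus strand), was at 50.9, 79.4 and 49.7 CPM with BMP-2, below the 94.2, 89.3 and 88.4 CPM of the controls. The controls were close together and BMP-2 replicate 2 stood near them. The log2 change was -0.60 (SE 0.179, edgeR adjusted p = 0.219). Without BMP-2 replicate 2 it was -0.85 and passed the test (edgeR adjusted p = 0.0211), with a range from 0.0211 to 0.622 over all alternatives.

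Adamts8, the neighbour of Adamts15 at 20.1 kb, averaged 2.48 ± 0.347 CPM with BMP-2 and 2.497 ± 0.824 CPM in controls (SD, n = 3 each). Adamts1 and Adamts5 lie 53.1 kb apart on chromosome 16. Adamts1 was at 112, 107 and 105 CPM with BMP-2 and at 104, 132 and 133 CPM in controls (log2 change -0.19, SE 0.115, edgeR adjusted p = 0.733). Adamts5 was at 64.0, 37.8 and 45.6 CPM with BMP-2 and at 59.4, 57.4 and 47.6 CPM in controls (log2 change -0.16, SE 0.191, edgeR adjusted p = 0.941). Both pairs of groups overlapped. Adamts4, with Adamts5 a main aggrecanase gene, was at 32.2, 34.5 and 34.9 CPM with BMP-2 and at 30.2, 38.9 and 36.9 CPM in controls (log2 change -0.06, SE 0.124, edgeR adjusted p = 0.971). The BMP-2 libraries lay within the span of the controls. Adamts20, which acts in the dermal matrix of mice, was at 3.39, 3.29 and 4.71 CPM with BMP-2 and at 2.04, 2.203 and 3.63 CPM in controls (log2 change 0.52, SE 0.309, edgeR adjusted p = 0.708).

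The procollagen-processing genes did not separate the groups. Adamts2 averaged 35.1 ± 5.91 CPM with BMP-2 and 30.4 ± 4.03 CPM in controls (SD, n = 3 each). Adamts3 averaged 11.1 ± 1.87 and 10.1 ± 0.614 CPM, and Adamts14 13.7 ± 3.50 and 15.3 ± 2.10 CPM. Their log2 changes ran from -0.17 to 0.21 and all of their groups overlapped. Of the pair that cuts the cartilage protein COMP, Adamts7 was at 57.0, 69.7 and 55.2 CPM with BMP-2 and at 73.0, 66.8 and 75.1 CPM in controls. Adamts12 was at 95.7, 67.9 and 53.9 CPM with BMP-2 and at 99.0, 94.8 and 103 CPM in controls (log2 change -0.45, SE 0.190, edgeR adjusted p = 0.480). The coefficient of variation of Adamts12 was 29.4% over the BMP-2 libraries and 3.89% over the controls, and BMP-2 replicate 1 reached the control range.

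Among the remaining ADAMTS genes, Adamts10, which acts on fibrillin microfibrils, was at 53.6, 51.6 and 54.7 CPM with BMP-2, against 32.2, 43.6 and 45.6 CPM in controls. Every BMP-2 library was above every control (log2 change 0.40, SE 0.139, edgeR adjusted p = 0.319). Adamts17 was at 76.6, 39.1 and 45.9 CPM with BMP-2 and at 78.9, 58.8 and 80.3 CPM in controls. Adamts18, transcribed at the tips of branching organs in the mouse, was at 23.7, 16.6 and 12.7 CPM with BMP-2 and at 28.6, 18.9 and 22.6 CPM in controls. Both were highest in BMP-2 replicate 1 among the treated libraries, and their groups overlapped. Adamts6, Adamts16 and Adamts19 averaged between 1.40 and 3.78 CPM in each group, with log2 changes from -0.03 to 0.18.

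Of the inhibitors, Timp2 was higher in every BMP-2 library. It lies on chromosome 11 from 118191895 to 118246566, minus strand (GRCm39). Its level was 301, 325 and 400 CPM with BMP-2, against 284, 263 and 266 CPM in controls. The 3 controls were close together, and the unnumbered BMP-2 library was the highest, as it was for Mmp14. The change was 1.26-fold, or 0.34 on the log2 scale (SE 0.128, edgeR adjusted p = 0.383). Without the unnumbered library it was 0.21 on the log2 scale. Over the 6 libraries the log2 levels of Timp2 and Mmp14 had a Pearson r of 0.986, the highest of all pairs among the 34 genes. These points share the same libraries and the same split into groups, so the value is a description. Timp2 holds Cep295nl within its span on the same strand, a row of 88 counts against 45072.

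Timp3 was at 374, 721 and 415 CPM with BMP-2 and at 266, 674 and 532 CPM in controls (log2 change 0.04, SE 0.385, edgeR adjusted p = 0.993). Timp1 was at 14.6, 52.8 and 24.9 CPM with BMP-2 and at 9.21, 29.8 and 23.9 CPM in controls (log2 change 0.55, SE 0.607, edgeR adjusted p = 0.930). Both genes were lowest in replicate 1 and highest in replicate 2 of each group, and their groups overlapped widely. Without BMP-2 replicate 2 the log2 changes were -0.31 for Timp3 and -0.088 for Timp1. Timp4 had 10 counts in the BMP-2 and 2 in the control libraries and was not tested. Timp1, Timp3 and Timp4 lie within the synapsin genes Syn1, Syn3 and Syn2 on the opposite strand. The synapsin rows held 789, 350 and 1796 counts over all libraries, and the Timp4 count is uncertain for that reason.

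Variation between libraries of a group was as large as the difference between groups for several genes. Replicate 1 was the lowest library of both groups for 9 of the 34 genes, which is 26.5%, against 19.5% of all genes tested. These 9 were Timp1, Timp3, Mmp3, Mmp12, Mmp19, Mmp24, Adamts4, Adamts6 and Adamts14. Replicate 1 was the highest of both groups for Adamts2, Adamts5, Adamts18 and Mmp11, which is 11.8%, against 19.5% of all genes. The control libraries varied most for Mmp13, with a coefficient of variation of 92.9%, and least for Adamts15, with 3.41%.

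**Figure D5:**
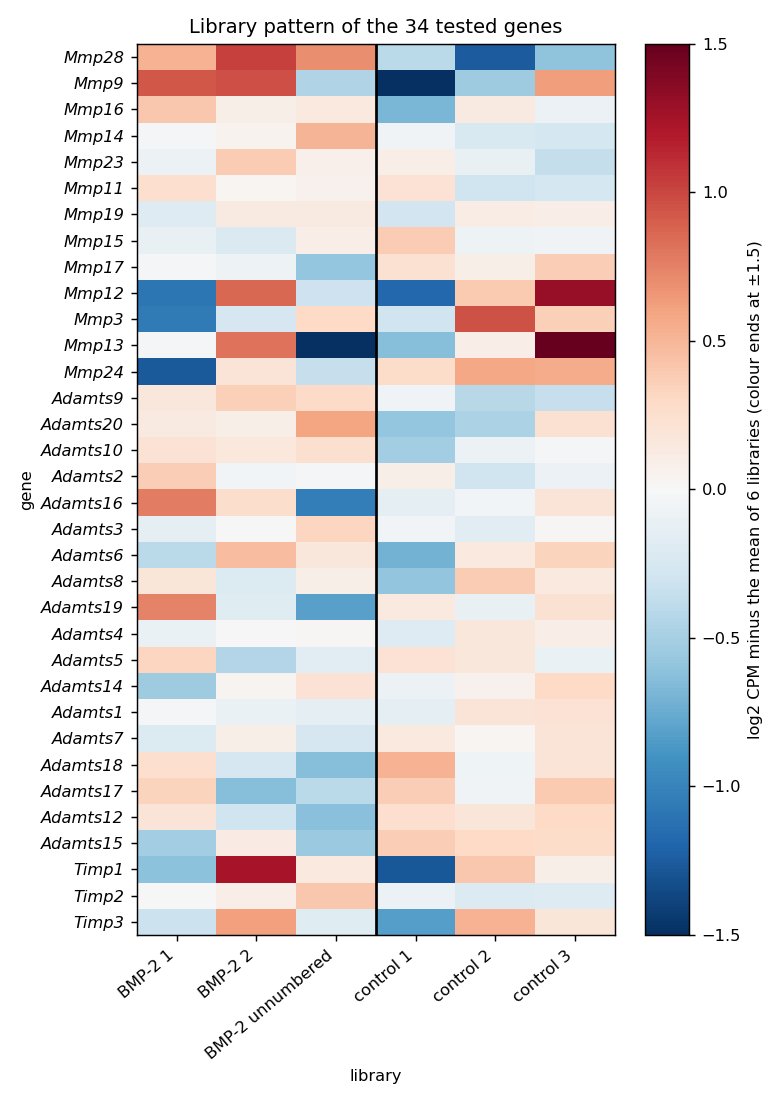
Log2 CPM of the 34 tested genes in each library (columns, BMP-2 left of the line and control right) minus the mean of the 6 libraries. Timp1 and Timp3 are low in replicate 1 of both groups, and Mmp28 is above its mean in the 3 BMP-2 libraries and below it in the 3 controls.

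In lists of genes that act with these enzymes, 3 genes passed the test, all higher with BMP-2. Among matrix proteins cut by these enzymes, 2 of 19 tested genes were called, both as higher, where 0.911% of all genes tested were called. Of the 19 changes, 12 were positive and 7 negative. Acan, the aggrecan gene, rose to 8.48 ± 4.06 CPM with BMP-2, against 0.208 ± 0.137 CPM in controls (SD, n = 3 each). Its log2 change was 5.38 with an SE of 0.573 (edgeR adjusted p = 0.009996). The control mean of Acan lay below the expression filter's cutoff of 0.423 CPM, so it was tested only through its BMP-2 libraries. The size of its change is uncertain for that reason. Col2a1, a cartilage collagen gene, rose to 26.4 ± 13.7 CPM, against 1.19 ± 0.594 CPM in controls (log2 change 4.44, SE 0.508, edgeR adjusted p = 0.0170). The call of Acan held in 12 of 15 alternatives. It was lost, among others, without control replicate 2 (edgeR adjusted p = 0.0541) and in limma-voom (0.0515). Its adjusted p ran from 4.284e-19 to 0.0541 over all alternatives. Col2a1 lost its call without control replicate 1 (edgeR adjusted p = 0.0716), without control replicate 2 (0.103) and with no expression filter (0.0812), with adjusted p of 1.472e-26 to 0.103 over all alternatives. Both are also cartilage markers, and that list of 13 summed to 450 to 561 CPM with BMP-2 and 316 to 372 CPM in controls. Of its 10 tested genes 4 were called as higher, where 0.811% of all genes tested were. Acan and Col2a1 are among these 4, so the count is not separate from the matrix calls, and the limit given for Acan applies to it. Matn1 was at 0 in all libraries and Snorc at 0 in the controls. The aggrecanase genes Adamts4 and Adamts5 had the log2 changes of -0.06 and -0.16 given above. Vcan, the versican gene, chosen after its value was seen, was at 445 ± 39.0 CPM with BMP-2 and 266 ± 38.3 CPM in controls and did not pass (log2 change 0.74, edgeR adjusted p = 0.0540). DESeq2, the fit with no expression filter and the replicate block called it, with adjusted p from 8.107e-05 to 0.195 over all alternatives. Of 8 other protease inhibitor and clearance genes tested, 1 was called, as higher, where 0.811% of all genes tested were. The 8 log2 changes ran from -1.67 to 1.88, with 4 positive and 4 negative. The called gene, Cst3, encodes the cathepsin inhibitor cystatin C. It rose to 151 ± 18.6 CPM with BMP-2 against 93.1 ± 8.14 CPM in controls (log2 change 0.70, SE 0.121, edgeR adjusted p = 0.0430). Its call held in 8 of 15 alternatives, among them the fit without BMP-2 replicate 2 (edgeR adjusted p = 0.0318). The losses included the fits without any other library (0.0765 to 0.180) and limma-voom (0.0581). Its adjusted p ran from 0.000115 to 0.187 over all alternatives.

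No gene was called in 7 other lists. These held 7 ADAMTS-like genes, 12 ADAM genes, 6 procollagen-processing and pappalysin genes and 7 plasminogen activation genes. They also held 4 proprotein convertase genes, 11 cathepsin genes and 14 genes of transcription factors known to act on MMP genes. The counts are those tested in edgeR, and at an unadjusted p below 0.05 the lists held 5, 3, 2, 2, 2, 3 and 1 genes, where 10.1% of all genes tested fell below it. Their median log2 changes were 0.61, 0.01, 0.11, 0.05, 0.28, 0.30 and 0.03, against -0.0098 over all genes tested. Adamtsl3, chosen after its value was seen, had the highest change of the ADAMTS-like genes, with 27.5 ± 10.9 CPM with BMP-2 and 9.62 ± 1.02 CPM in controls (SD, n = 3 each). The change of 1.51 on the log2 scale did not pass (SE 0.303, edgeR adjusted p = 0.0735). DESeq2 called it, as did edgeR without BMP-2 replicate 1, and its adjusted p ran from 1.425e-05 to 0.265 over all alternatives.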

How the data were processed

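The authors deposited unnormalized counts of reads for each gene, beside coordinates and gene lengths. Per the submitters' processing notes, tools were cutadapt 2.9, HISAT2 2.2.0 and featureCounts, with build GRCm39. The strand setting and the treatment of reads matching several places are not given in the sources used here. Columns were matched to samples by description; 1 column matched none and was grouped by its first letter. No pair of replicates matched within counting error (chi-square over its degrees of freedom was 13.7 to 41.5). Nothing states that they came from separate litters, so p-values measure the spread between these libraries.

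One edgeR quasi-likelihood fit (edgeR 4.0.16, R 4.3.3; TMM factors, robust, default expression filter) covered the whole table, adjusted after Benjamini and Hochberg for 17006 genes (threshold 0.05). It has 4 residual degrees of freedom and was tested on simulated data. CPM used TMM-scaled library sizes. An exact permutation test of 3 against 3 cannot go below p = 0.1 and was not used. Alternatives were DESeq2 1.42.0, limma-voom (limma 3.58.1), other scalings and filters, blocking on replicate number, and fits lacking 1 library each. The members and gene lists were chosen with earlier results of these data known. Values in every library were to be given for the TIMP genes, Mmp2, Mmp9, Mmp13, Mmp14, Adamts1, Adamts4, Adamts5 and the 6 largest changes in each direction, and in each further list for up to 4 called genes. The remaining members are given to account for all, and other genes are marked as chosen after their values were seen. Promoter windows come from RefSeq (GRCm38.p6) and were matched by symbol only. Listed symbols without a row (Acta1, Tubb3) were not analysed here.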

Additional observations from a re-analysis of the deposited data

How the results depend on the processing

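The count of 0 members called held with RLE size factors, library totals, a filter of 1 CPM in 3 libraries, limma-voom and edgeR without the robust option. DESeq2 and the fit with no expression filter each called 2 members as higher, Mmp28 and Adamts9. Leaving out 1 library gave 0 higher and 0 to 1 lower members, namely Adamts15 without BMP-2 replicate 2. Over all genes, 155 were called, against 552 with no filter, 691 by DESeq2, 78 by limma-voom and 20 to 151 without 1 library. Lacking control replicate 1 it was 20, lacking control replicate 2 it was 21, lacking the unnumbered library 29 and lacking BMP-2 replicate 1 94.

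Deviations from the group mean had an r of 0.428 between the 2 groups for replicate 1 and of 0.137 for replicate 2. BMP-2 replicate 1 and control replicate 2 had an r of -0.342, and BMP-2 replicate 2 and control replicate 1 one of -0.313. Deviations within a group are tied to each other through its mean, so these values are not independent. With 2 pairs and no label, the numbers are not known to pair the libraries. On these 4 libraries the replicate block called 540 genes and 2 members as higher, Mmp9 (log2 change 1.98) and Timp1 (0.76). Without it they gave 42 genes and 0 members, with log2 changes of 1.92 for Mmp9 and 0.79 for Timp1.

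Some uncalled changes turned sign: 27 to 32 of the 34 members kept theirs without 1 library, and 30 on replicates 1 and 2 alone. The log2 changes that turned, as ranges over the fits without 1 library, ran from -0.088 to 0.89 for Timp1, -0.31 to 0.34 for Timp3, -1.16 to 0.25 for Mmp12, -1.60 to 0.25 for Mmp13, -0.074 to 0.15 for Mmp19, -0.00053 to 0.24 for Adamts3, -0.16 to 0.014 for Adamts4, -0.39 to 0.00097 for Adamts5, -0.14 to 0.35 for Adamts6, -0.24 to 0.21 for Adamts8, -0.33 to 0.028 for Adamts14, -0.27 to 0.55 for Adamts16 and -0.58 to 0.27 for Adamts19. On replicates 1 and 2 alone, with the replicate block, Mmp13 was at 0.73, Mmp12 at 0.31, Adamts19 at 0.30 and Adamts8 at 0.085. Unblocked, they were at 0.72, 0.39, 0.36 and 0.031. Adamts8, at -0.01 in the reported fit, was at 0.012 with no expression filter and 0.039 in limma-voom. The cause was not tested.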
